A study of Mus musculus with 36 samples.

Results

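Livers of THRB KO mice were compared between the middle of the dark phase (ZT18) and the middle of the light phase (ZT6), with 3 mice at each time, 6 of the 36 liver samples of the series. ZT is zeitgeber time, in hours after lights on. The members were chosen by genotype and time as the sample titles give them, and every gene with at least 100 counts summed over the 36 samples was tested, 17994 of 54532 deposited genes. THRB is the thyroid hormone receptor that predominates in liver, and the KO mice (THRB-/-) carry a systemic knockout of both of its isoforms, which the study describes as impairing its DNA binding. The strain is B6.129S1-Thrbtm1Df/J on a C57Bl/6NCrl background. The control mice, called THRB WT by the study, are heterozygous (THRB+/-), so all mice of the series carry the altered allele. All were males aged 2 to 3 months under 12 h of light and 12 h of dark, with chow and water always available. Mice are nocturnal, so ZT18 falls in their active and main feeding phase and ZT6 in their resting phase.

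The liver clock is a feedback loop of transcription. CLOCK and ARNTL (also known as BMAL1) activate genes with an E-box, among them the Per and Cry genes, whose proteins inhibit that activation. The nuclear receptors NR1D1 and NR1D2 repress Arntl, ROR proteins activate it, and the proteins DBP, TEF, HLF and NFIL3 pass the rhythm on to metabolic genes. Feeding adds a rhythm of its own, since insulin and nutrients raise lipid synthesis and fasting raises fatty acid oxidation.

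The 6 libraries held from 31008555 to 36922596 counts, and the ZT18 and ZT6 libraries overlapped (two-sided exact permutation test, p = 0.3, where 0.1 is the smallest p that 3 against 3 mice can give). The TMM scaling factors did not overlap, at 0.998, 1.008 and 1.012 in ZT6 mice a, b and c and 0.965, 0.986 and 0.987 in ZT18 mice a, b and c (exact permutation p = 0.1). Mitochondrial transcripts took from 5.69% to 6.86% of the counts at ZT6 and from 6.79% to 7.28% at ZT18 (exact permutation p = 0.2). Thrb (chr14:17660261-18038090 of GRCm38) was still counted, at 31.9, 27.7 and 35.9 CPM (the usual unit of gene counts relative to library size, here scaled by TMM) in ZT6 mice a, b and c and at 31.9, 32.5 and 32.1 CPM in ZT18 mice a, b and c. Its values overlapped between the times (log2 fold change 0.02, edgeR adjusted p = 0.963), and counts per gene do not show whether a transcript is functional. The hepatocyte markers Alb, Apoa1, Apob, Ttr, Cps1 and Hnf4a all passed the filter, and their sum lay between 74070 and 89560 CPM. Individual libraries stood apart for single gene groups. ZT18 mouse a had the highest values of several chaperone genes, ZT6 mouse b had low values of Per1, Per3, Ciart and Usp2, and ZT6 mouse c alone had a high value of Mup14.

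In THRB KO liver 2356 genes passed the threshold of an adjusted p of 0.05 (quasi-likelihood test of edgeR, Benjamini-Hochberg over all genes tested), or 13.1% of them. At ZT18 1060 genes were higher (5.89%) and 1296 were lower (7.20%), and 4611 genes had an unadjusted p under 0.05. Large changes were more often upward, with 336 genes higher and 181 lower by at least 1 on the log2 scale. The median absolute log2 fold change of the called genes was 0.56, and the median log2 fold change of all genes tested was 0.02. For 2304 of the called genes (97.8%) the 3 mice of one time all lay above the 3 of the other, against 32.0% of all genes tested. Leaving out ZT18 mouse a, ZT6 mouse a or ZT6 mouse c reduced the counts by over 1.5 times, to 589, 602 and 687 genes higher and 680, 848 and 824 genes lower. In a bulk sample, fewer cells of a type and less RNA per cell cannot be told apart.

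Arntl, Cry1 and Per2 were high at ZT18, and the NR1D repressors and Dbp were high at ZT6. Of 24 clock genes, all measured, 5 were higher at ZT18, among them Cry1, Per2, Arntl and Nfil3, and 5 were lower, among them Nr1d1, Dbp, Bhlhe41 and Nr1d2, against 5.89% and 7.20% of all genes tested. The median log2 fold change of the list was -0.10, and that of all genes tested was 0.02.

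Nr1d1, the repressor of Arntl, lies on the minus strand of chromosome 11 (chr11:98767932-98775333). It was counted at 163, 143 and 139 CPM in ZT6 mice a, b and c and at 6.01, 4.58 and 5.15 CPM in ZT18 mice a, b and c. All ZT6 mice lay far above all ZT18 mice, and the mean was 28.3-fold lower at ZT18 (log2 fold change -4.82, standard error 0.33, edgeR adjusted p = 1.47e-10). A stretch of 1075 bases of Nr1d1 overlaps Thra on the other strand, and the libraries do not mark strand, so reads in that stretch cannot be assigned to one of them. Its relative Nr1d2 fell from 83.1 ± 16.4 to 24.1 ± 3.99 CPM (SD, n = 3), a log2 fold change of -1.78 (standard error 0.26, edgeR adjusted p = 3.92e-05).

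Arntl, the partner of CLOCK and the target of that repression, was at 2.57, 6.75 and 4.41 CPM in ZT6 mice a, b and c and at 14.6, 19.2 and 23.6 CPM in ZT18 mice a, b and c. The times did not overlap, and the log2 fold change was 2.06 (standard error 0.27, edgeR adjusted p = 9.1e-06). Clock itself lay at 31.2 ± 4.95 CPM at ZT6 and 30.2 ± 1.69 CPM at ZT18 (SD, n = 3; edgeR adjusted p = 0.881). Rora had a log2 fold change of 0.17 (edgeR adjusted p = 0.51).

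The repressors of the negative limb were split. Cry1 was at 6.67, 7.47 and 6.05 CPM in ZT6 mice a, b and c and at 35.2, 43.7 and 50.8 CPM in ZT18 mice a, b and c, so every ZT18 mouse was above every ZT6 mouse (log2 fold change 2.68, standard error 0.21, edgeR adjusted p = 1.03e-09). Per2 was at 21.6, 15.5 and 18.6 CPM at ZT6 and at 113, 85.9 and 64.1 CPM at ZT18 in mice a, b and c (log2 fold change 2.24, standard error 0.27, edgeR adjusted p = 1.25e-06). The paralogs Cry2, Per1 and Per3 did not pass, with log2 fold changes of 0.19, -0.14 and 0.47. Per1 was at 35.8, 11.8 and 63.1 CPM in ZT6 mice a, b and c, a spread that spans its ZT18 values of 37.1, 36.5 and 26.5 CPM. Usp2, a deubiquitinase with a strong rhythm in liver, was likewise at 34.4, 6.77 and 15.4 CPM at ZT6 and between 25.3 and 27.4 CPM at ZT18. Without ZT6 mouse a, Usp2 passed (log2 fold change 1.25, edgeR adjusted p = 0.0242).

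Dbp, the activator of D-box genes, was at 194, 92.8 and 94.8 CPM in ZT6 mice a, b and c and at 8.16, 8.08 and 8.91 CPM in ZT18 mice a, b and c. ZT6 mouse a was highest, all ZT6 mice were above all ZT18 mice, and the mean was 15.2-fold lower at ZT18 (log2 fold change -3.92, standard error 0.45, edgeR adjusted p = 9.49e-07). Nfil3, which represses the same D-box sites, moved the other way, from 15.6 ± 0.192 to 40.5 ± 6.90 CPM (SD, n = 3; log2 fold change 1.38, standard error 0.18, edgeR adjusted p = 9.1e-06). Tef and Hlf, of the same family as Dbp, had log2 fold changes of -0.37 and -0.21 and did not pass. Bhlhe41, an E-box repressor, was at 18, 4.22 and 6.81 CPM at ZT6 and at 1.09, 1.28 and 0.47 CPM at ZT18 (log2 fold change -3.36, edgeR adjusted p = 7.69e-06), whereas its paralog Bhlhe40 did not pass, at -0.53 on that scale (edgeR adjusted p = 0.225). The other clock genes that did not pass were Npas2, Fbxl21, Ciart, Csnk1d and Csnk1e, with log2 fold changes from -1.33 for Npas2 to 0.37 for Csnk1e.

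**Figure D1:**
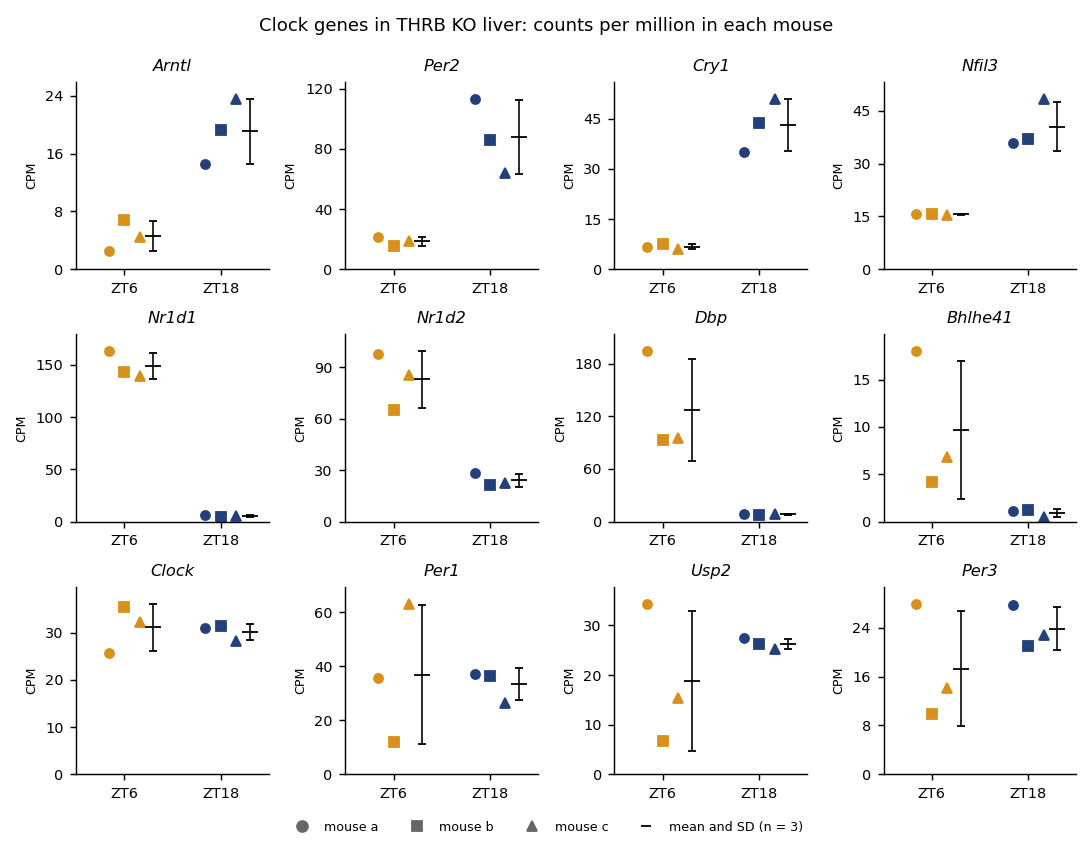
CPM (y axis, from 0) of 12 clock genes in each THRB KO mouse at ZT6 (orange) and ZT18 (blue), with mean and SD of 3 mice in black. Nr1d1, Nr1d2, Dbp and Bhlhe41 are lower in all ZT18 mice and Arntl, Per2, Cry1 and Nfil3 higher, while the ZT6 values of Per1 and Usp2 span those of ZT18.

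Promoter sequences of RefSeq (GRCm38.p6, from 250 bases before to 50 after a start) were matched to 11890 of the 17994 genes tested, with 15064 promoters, and to 19 of the 24 clock genes. The E-box CACGTG, which reads the same on both strands, was found in the promoters of 5 of these 19 clock genes, and the ROR element TAGGTCA, searched on both strands, in 2. Of the genes that changed, Cry1 (higher) and Bhlhe41 (lower) carry an E-box 60 and 153 bases before the start, and Arntl and Nfil3 (both higher) a ROR element, 30 bases after the start in Arntl and 12 bases before it in Nfil3. Another matched promoter of Arntl held neither element, nor did those of Nr1d1, Nr1d2 and Dbp, which were lower. The other clock genes with an E-box, Ciart, Per1 and Tef, were not called. The following stretches are shown because the same element accompanies opposite levels at ZT18 (E-box) or the same direction (ROR element); capitals mark the element, and the Nfil3 match is on the opposite strand of the gene.
Cry1, chr10:85185084-85185139, minus strand: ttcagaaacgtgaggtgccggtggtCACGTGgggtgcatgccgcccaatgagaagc
Bhlhe41, chr6:145865543-145865598, minus strand: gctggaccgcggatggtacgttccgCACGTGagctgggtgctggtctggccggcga
Arntl, chr7:113207531-113207557, plus strand: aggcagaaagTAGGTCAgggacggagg
Nfil3, chr13:52981040-52981076, minus strand: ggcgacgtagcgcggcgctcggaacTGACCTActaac

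Over all matched promoters the E-box stood in 9.31%, against 9.69% of the promoters of genes higher at ZT18 and 10.7% of those of genes lower at ZT18. The ROR element stood in 2.09% of all promoters, in 2.05% of those of higher genes and in 1.58% of those of lower genes. The D-box TTATGTAA, searched on both strands, stood in 0.624% of all promoters, in 1.08% of those of higher genes and in 0.676% of those of lower genes. The core of the sterol regulatory element, TCACNCCA on either strand, stood in 3.99%, 5.38% and 3.98% in the same order. These shares are a description of letters in short windows.

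Genes of fatty acid synthesis were higher at ZT18. Of 20 members, all measured, 10 were higher and the other 10 did not pass, with a median log2 fold change of 0.85 against 0.02 over all genes tested. The genes called were Thrsp, Fasn, Elovl6, Acly, Aacs, Acacb, Scd2, Me1, Acaca and Pgd. Of all genes tested, 5.89% were higher. The count of genes called was between 7 and 9 when single mice were left out.

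Thrsp, a nuclear protein that promotes lipid synthesis and a classic thyroid hormone target, was at 235, 84.0 and 176 CPM in ZT6 mice a, b and c and at 1595, 1367 and 1532 CPM in ZT18 mice a, b and c. The times were far apart, 9.08-fold in the means (log2 fold change 3.18, standard error 0.61, edgeR adjusted p = 6.53e-04). Fasn (chr11:120805846-120824547), the fatty acid synthase, was at 400, 462 and 688 CPM at ZT6 and at 2351, 2066 and 2174 CPM at ZT18 (log2 fold change 2.09, standard error 0.50, edgeR adjusted p = 0.00551). Acly, which makes cytosolic acetyl-CoA from citrate, rose from 241 ± 50.1 to 800 ± 75.8 CPM (SD, n = 3; log2 fold change 1.73, edgeR adjusted p = 0.00219). Elovl6, which elongates palmitate, was between 69.1 and 81.1 CPM at ZT6 and at 323, 166 and 299 CPM in ZT18 mice a, b and c (log2 fold change 1.77, edgeR adjusted p = 0.0021). The NADPH-producing enzymes Pgd and Me1 rose with log2 fold changes of 0.82 and 0.98 (edgeR adjusted p = 0.00157 and 0.0241). The call of Me1 was lost without ZT6 mouse a, b or c or ZT18 mouse c, with adjusted p between 0.0523 and 0.124. Srebf1, the gene of the lipogenic transcription factor SREBP1, was at 272 ± 10.8 CPM at ZT6 and 412 ± 45.6 CPM at ZT18 (SD, n = 3), above ZT6 in all ZT18 mice, but did not pass in the fit of all 36 libraries (log2 fold change 0.60, edgeR adjusted p = 0.15). In a fit of the 6 KO libraries alone its adjusted p was 0.00638. Scd1, the main liver desaturase, had a log2 fold change of 0.52 and did not pass (edgeR adjusted p = 0.436).

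Calls among cholesterol genes were few. Of 27 genes of cholesterol synthesis and uptake, 4 were higher at ZT18 (Mvd, Insig1, Lss and Pmvk) and 2 were lower (Mvk and Scap), with a median log2 fold change of 0.04. Of all genes tested, 5.89% were higher and 7.20% lower, so the share called lower in this list was near that of all genes. Insig1, the SREBP-induced brake on cholesterol synthesis, rose from 289 ± 40.5 to 705 ± 97.8 CPM (SD, n = 3; log2 fold change 1.29, edgeR adjusted p = 0.0103). Hmgcs1, an early enzyme of the pathway, showed a log2 fold change of -0.16 and did not pass. Scap, the escort of SREBP proteins, fell from 160 ± 22.3 to 115 ± 4.47 CPM (SD, n = 3; log2 fold change -0.47, edgeR adjusted p = 0.00311). The count of 4 became 0 without ZT6 mouse a and 0 without ZT18 mouse a. It was 2 without ZT6 mouse b and 8 in the fit of the 6 libraries alone. The count of 2 became 1 without ZT6 mouse a, b or c or ZT18 mouse a or c.

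Several transporters of bile acids and sterols were lower at ZT18. Of 27 genes of bile acid synthesis and transport, enzymes included, 8 were lower and 2 higher (Acnat2 and Akr1d1). Over all genes tested 7.20% were lower and 5.89% higher. The list median log2 fold change was -0.17. Abcg8, which with Abcg5 secretes cholesterol into bile, was at 124, 119 and 133 CPM in ZT6 mice a, b and c and at 28.9, 41.3 and 49.8 CPM in ZT18 mice a, b and c. The times did not overlap (log2 fold change -1.65, standard error 0.20, edgeR adjusted p = 1.4e-06). Abcg5 fell from 94.9 ± 7.63 to 40.6 ± 7.05 CPM (SD, n = 3; log2 fold change -1.23, standard error 0.18, edgeR adjusted p = 2.41e-05). The genes lie on opposite strands and share 6710 bases, in which reads cannot be assigned to one of them. Abcb11, the bile salt export pump, was between 680 and 754 CPM at ZT6 and between 435 and 466 CPM at ZT18 (log2 fold change -0.67, edgeR adjusted p = 4.33e-04). Amacr, a racemase of the side chain pathway, had a log2 fold change of -0.49 (edgeR adjusted p = 0.00129). Cyp7a1, the rate-limiting enzyme of bile acid synthesis, was at 72.1, 116 and 64.9 CPM at ZT6 and at 145, 162 and 147 CPM at ZT18, higher in every ZT18 mouse without passing the threshold (log2 fold change 0.84, edgeR adjusted p = 0.244). Cyp8b1 had a log2 fold change of 0.82 (edgeR adjusted p = 0.159), and both passed in the fit of the 6 libraries alone (adjusted p = 0.023 and 0.0182). Nr0b2, the repressor known as SHP, had a log2 fold change of -1.14 (edgeR adjusted p = 0.0741) and passed without ZT6 mouse a (adjusted p = 0.0306). With single mice left out, from 5 to 7 genes of the list were called lower. The 2 upward calls became 0 without ZT6 mouse a, ZT6 mouse c or ZT18 mouse a, and 1 without ZT18 mouse c.

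Fatty acid oxidation genes were called in both directions. Of 41 genes, 5 were lower, among them Bdh1, Cpt1a, Eci2 and Etfdh, and 3 higher (Acaa1b, Pex11a and Cpt2), with a median log2 fold change of -0.12. Against 7.20% lower and 5.89% higher over all genes tested, the share called higher was near that of all genes. Cpt1a, which controls the entry of fatty acids into mitochondria, was at 356, 302 and 378 CPM in ZT6 mice a, b and c and at 140, 169 and 218 CPM in ZT18 mice a, b and c. No ZT18 mouse reached a ZT6 mouse (log2 fold change -0.98, standard error 0.16, edgeR adjusted p = 1.83e-04). Bdh1, which interconverts the ketone bodies, fell from 266 ± 19.3 to 153 ± 4.57 CPM (SD, n = 3; log2 fold change -0.80, standard error 0.10, edgeR adjusted p = 2.68e-06). Etfdh, which passes electrons from fatty acid oxidation to the respiratory chain, had a log2 fold change of -0.46 (edgeR adjusted p = 0.00386). Ppara and the hormone gene Fgf21 had log2 fold changes of -0.33 and -1.70 and did not pass. The 3 upward calls became 0 without ZT6 mouse c and 0 without ZT18 mouse b, and 1 without ZT6 mouse a. The 5 downward calls became 3 without ZT6 mouse a.

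Among 30 measured genes of lipid droplets and triglyceride turnover, 6 were higher at ZT18 and 5 were lower, with a median log2 fold change of 0.05. The shares over all genes tested were 5.89% higher and 7.20% lower. Pnpla2, the adipose triglyceride lipase, was at 118, 99.8 and 105 CPM at ZT6 and at 54.3, 61.8 and 75.1 CPM at ZT18 (log2 fold change -0.75, standard error 0.10, edgeR adjusted p = 1.13e-05). G0s2, the inhibitor of that lipase, was at 15.6, 52.6 and 43.1 CPM at ZT6 and at 250, 71.9 and 155 CPM at ZT18. All ZT18 mice were above all ZT6 mice (log2 fold change 2.10, edgeR adjusted p = 0.00935), and the call was lost without ZT6 mouse a (adjusted p = 0.0665) or ZT18 mouse a (0.081). The esterase Ces1d and the monoglyceride lipase Mgll rose, with log2 fold changes of 0.98 and 0.59 (edgeR adjusted p = 4.79e-04 and 0.00117). Agpat3, an acyltransferase of phospholipid synthesis, fell slightly (log2 fold change -0.37, edgeR adjusted p = 0.00188). The count of 6 became 3 without ZT6 mouse a or ZT18 mouse a.

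**Figure D2:**
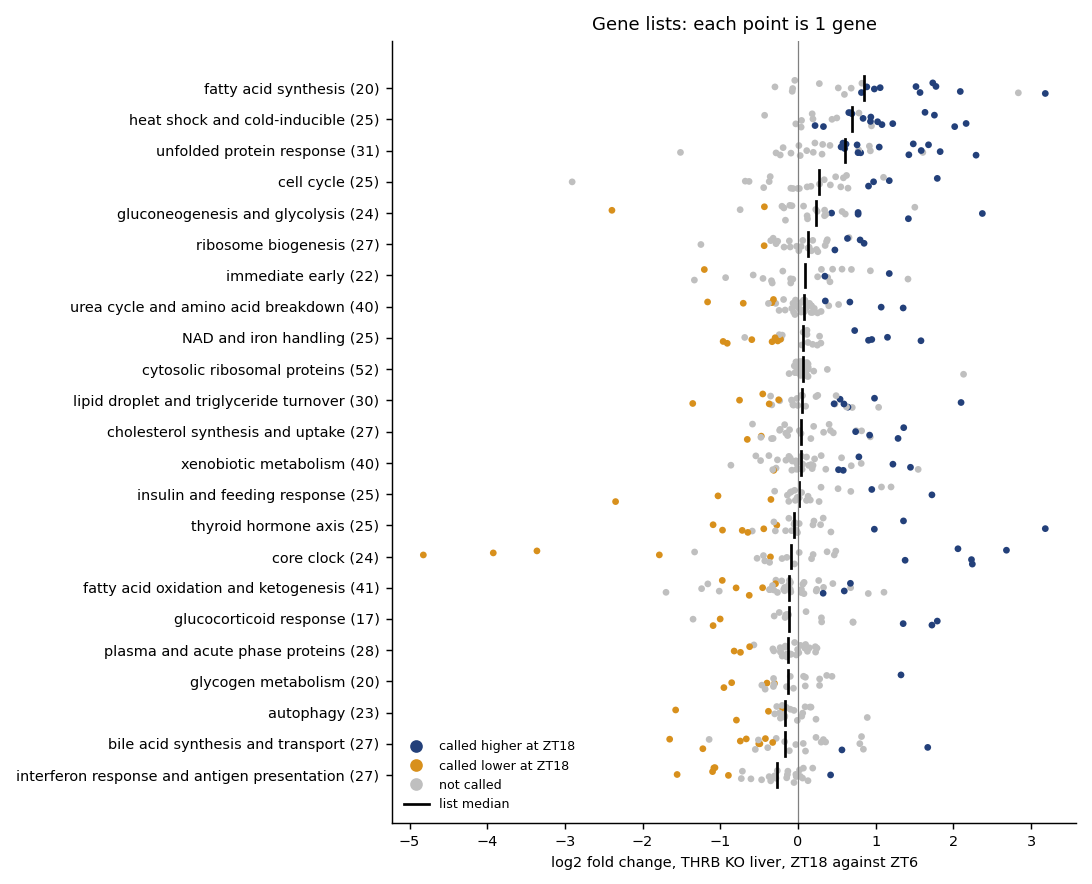
Log2 fold change of ZT18 against ZT6 in THRB KO liver (x axis) for the measured genes of 23 lists (y axis, number of genes in brackets). Blue points were called higher and orange points lower at ZT18, grey points were not called, and the black line is the list median; the medians of fatty acid synthesis, heat shock and unfolded protein response genes lie between 0.60 and 0.85.

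Glucose genes changed as individual enzymes. Of 24 genes of gluconeogenesis and glycolysis, 5 were higher at ZT18, among them Pdk4, Pfkfb1, Tkfc and Eno1, and 2 lower (Pfkfb3 and Slc2a2). Against 5.89% higher and 7.20% lower over all genes tested, the share called lower was near that of all genes. The list median log2 fold change was 0.24. Paralogs of the enzyme that sets the level of a fructose bisphosphate activating glycolysis moved in opposite directions. Pfkfb3 was at 60.7, 25.8 and 61.1 CPM in ZT6 mice a, b and c and at 10.3, 11.7 and 6.15 CPM in ZT18 mice a, b and c, and all ZT18 mice were below all ZT6 mice (log2 fold change -2.40, standard error 0.51, edgeR adjusted p = 0.00205). Pfkfb1, the liver form, rose from 15.9 ± 3.90 to 42.5 ± 5.42 CPM (SD, n = 3; log2 fold change 1.42, standard error 0.27, edgeR adjusted p = 7.5e-04). Pdk4, which inactivates pyruvate dehydrogenase, was at 1.79, 2.98 and 3.17 CPM at ZT6 and at 8.77, 11.3 and 21.1 CPM at ZT18 (log2 fold change 2.37, edgeR adjusted p = 0.00309). Tkfc, of fructose metabolism, had a log2 fold change of 0.77 (edgeR adjusted p = 0.00777). The gluconeogenic genes Pck1 and G6pc had log2 fold changes of -0.74 and 0.34, did not pass and overlapped between the times. The 5 upward calls became 3 without ZT18 mouse c, and the 2 downward calls became 1 without ZT6 mouse a, ZT6 mouse c, ZT18 mouse a or ZT18 mouse b.

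Of 20 glycogen genes, 4 were lower at ZT18 and 1 higher, against 7.20% and 5.89% of all genes tested. The share called higher was thus near that of all genes. Phka2, a regulatory subunit of liver phosphorylase kinase, fell from 25.7 ± 2.50 to 13.3 ± 1.20 CPM (SD, n = 3; log2 fold change -0.95, standard error 0.13, edgeR adjusted p = 1.96e-05). Epm2a, the glycogen phosphatase laforin, and the kinase Gsk3a had log2 fold changes of -0.85 and -0.30 (edgeR adjusted p = 0.0017 and 0.00415). Ppp1r3b, which targets a phosphatase to glycogen, was at 71.1, 204 and 327 CPM in ZT6 mice a, b and c and at 512, 523 and 476 CPM in ZT18 mice a, b and c (log2 fold change 1.32, edgeR adjusted p = 0.0229). Its ZT6 values spread widely, and the call was lost without ZT6 mouse a, ZT6 mouse b, ZT18 mouse a or ZT18 mouse b, with adjusted p from 0.0579 to 0.136, and in the fit of the 6 libraries alone (0.0674). Pygl, the liver phosphorylase, had a log2 fold change of 0.28 and did not pass (edgeR adjusted p = 0.311).

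Among 25 genes of the insulin and feeding response, 2 were higher (Ddit4 and Hamp) and 3 lower (Trib3, Inhbe and Insr) at ZT18. Against 5.89% higher and 7.20% lower over all genes tested, the share called higher was near that of all genes. Trib3, a pseudokinase that inhibits AKT, was at 16.4, 11.8 and 18.7 CPM at ZT6 and at 3.42, 2.52 and 3.26 CPM at ZT18 (log2 fold change -2.35, standard error 0.28, edgeR adjusted p = 1.25e-06). Ddit4, an inhibitor of mTORC1, rose from 7.41 ± 2.82 to 24.5 ± 4.84 CPM (SD, n = 3; log2 fold change 1.72, edgeR adjusted p = 0.00429). Insr, the insulin receptor, and Inhbe, a secreted protein of the activin family, had log2 fold changes of -0.35 and -1.03 (edgeR adjusted p = 0.00314 and 0.00902). Igfbp1, a secreted binding protein that fasting raises, was at 22.3, 22.2 and 52.0 CPM at ZT6 and at 23.2, 57.4 and 73.8 CPM at ZT18, with overlap (edgeR adjusted p = 0.617). The upward count became 1 without ZT6 mouse b, ZT6 mouse c or ZT18 mouse b, and the list median log2 fold change was 0.01.

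Amino acid enzymes were called in both directions, 4 higher (Tat, Asl, Gpt2 and Nags) and 4 lower (Agxt, Cbs, Tdo2 and Bckdha) of 40. Over all genes tested 5.89% were higher and 7.20% lower, and the list median log2 fold change was 0.07. Agxt, the peroxisomal alanine-glyoxylate transaminase, was at 312, 393 and 379 CPM at ZT6 and between 157 and 168 CPM at ZT18 (log2 fold change -1.16, standard error 0.16, edgeR adjusted p = 1.28e-05). Asl, the argininosuccinate lyase of the urea cycle, rose from 471 ± 21.8 to 988 ± 167 CPM (SD, n = 3; log2 fold change 1.07, edgeR adjusted p = 2.12e-04). Tat, tyrosine aminotransferase and a glucocorticoid target, was at 700, 562 and 1102 CPM at ZT6 and at 2320, 1736 and 1981 CPM at ZT18 (log2 fold change 1.35, edgeR adjusted p = 0.00591). Cbs, of the transsulfuration pathway, had a log2 fold change of -0.70 (edgeR adjusted p = 0.00116), and Cps1, the first enzyme of the urea cycle, one of 0.40 that did not pass. The upward count became 2 without ZT6 mouse c or ZT18 mouse c, and the downward count 2 without ZT6 mouse a or ZT18 mouse a. Of 17 measured glucocorticoid response genes, 3 were higher (Tat, Ddit4 and Cdkn1a) and 2 lower (Klf9 and Errfi1), against 5.89% and 7.20% of all genes tested. Their median log2 fold change was -0.12. Klf9, a transcription factor induced by glucocorticoids and by thyroid hormone, fell from 76.3 ± 8.004 to 35.8 ± 8.57 CPM (SD, n = 3; log2 fold change -1.09, edgeR adjusted p = 0.00429). The downward count became 1 without ZT6 mouse a, ZT6 mouse c, ZT18 mouse a or ZT18 mouse c.

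Many heat shock genes were higher at ZT18. Of 25 heat shock and cold-inducible genes, 15 were higher (5.89% of all genes tested were) and the other 10 did not pass, with a median log2 fold change of 0.69 against 0.02 over all genes tested. Without ZT18 mouse a the count was 11, and with other single mice left out it was between 12 and 15. Hsp90aa1 (chr12:110690605-110702728), the inducible HSP90, was at 97.2, 108 and 99.4 CPM in ZT6 mice a, b and c and at 435, 441 and 355 CPM in ZT18 mice a, b and c. The times did not overlap, and the means differed 4.05-fold (log2 fold change 2.02, standard error 0.21, edgeR adjusted p = 2.68e-07). Hsp90ab1, the constitutive form, rose from 789 ± 25.8 to 1410 ± 54.3 CPM (SD, n = 3; log2 fold change 0.84, standard error 0.09, edgeR adjusted p = 5.63e-07). Fkbp4, an immunophilin that binds HSP90, had a log2 fold change of 1.08 (standard error 0.10, edgeR adjusted p = 2.74e-08). Hspb1, a small heat shock protein, was at 24.7, 22.6 and 20.0 CPM at ZT6 and at 78.3, 125 and 98.2 CPM at ZT18 (log2 fold change 2.16, standard error 0.23, edgeR adjusted p = 2.61e-07). Hsph1, an HSP70 nucleotide exchange factor, had a log2 fold change of 1.75 (edgeR adjusted p = 1.78e-04). Hspa8, the constitutive HSP70, was at 789, 594 and 745 CPM at ZT6 and at 2199, 1018 and 1112 CPM at ZT18. ZT18 mouse a was far above the other mice. The log2 fold change of Hspa8 was 1.02 (edgeR adjusted p = 0.0227), and the call was lost without ZT18 mouse a (adjusted p = 0.267). It was also lost without ZT6 mouse b or ZT6 mouse c (adjusted p = 0.0915 and 0.0589).

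A heat shock element, here the letters GAANNTTC in which N is any base and which read the same on both strands, stood in the promoter window of Hspb1 at 2 places, 117 and 97 bases before its start. The stretch is shown because Hspb1 had the largest change of this list, with both matches in capitals.
Hspb1, chr5:135887777-135887854, plus strand: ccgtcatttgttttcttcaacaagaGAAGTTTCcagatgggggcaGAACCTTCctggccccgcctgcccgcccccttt
This pattern stood in 8.12% of the promoters of genes higher at ZT18, in 4.66% of those of genes lower at ZT18 and in 5.99% of all matched promoters.

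Genes of protein folding in the endoplasmic reticulum rose as well. Of 31 genes of the unfolded protein response, 14 were higher at ZT18 (5.89% of all genes tested were) and the other 17 did not pass, with a median log2 fold change of 0.60. Without ZT18 mouse a the count was 10. Hspa5, the chaperone BiP, was at 457, 477 and 452 CPM in ZT6 mice a, b and c and at 1878, 926 and 921 CPM in ZT18 mice a, b and c (log2 fold change 1.43, standard error 0.31, edgeR adjusted p = 0.00204). Creld2, a secreted protein induced by stress of that compartment, was at 20.8, 24.6 and 21.0 CPM at ZT6 and at 198, 77.8 and 50.01 CPM at ZT18. All ZT18 mice exceeded all ZT6 mice for both genes, with mouse a far above mice b and c (Creld2 log2 fold change 2.29, edgeR adjusted p = 0.00444, and 0.0769 without ZT18 mouse a). Manf, a secreted protein of the same response, was at 283, 128 and 123 CPM at ZT18 and between 42.0 and 57.9 CPM at ZT6 (log2 fold change 1.83, edgeR adjusted p = 8.58e-04). Sdf2l1 and the disulfide isomerase Pdia3 had log2 fold changes of 1.68 and 0.76 (edgeR adjusted p = 0.00233 and 5.41e-04). Xbp1, a transcription factor of the response whose activity depends on splicing, had a log2 fold change of -0.19 and did not pass, and counts per gene do not show its splicing.

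**Figure D3:**
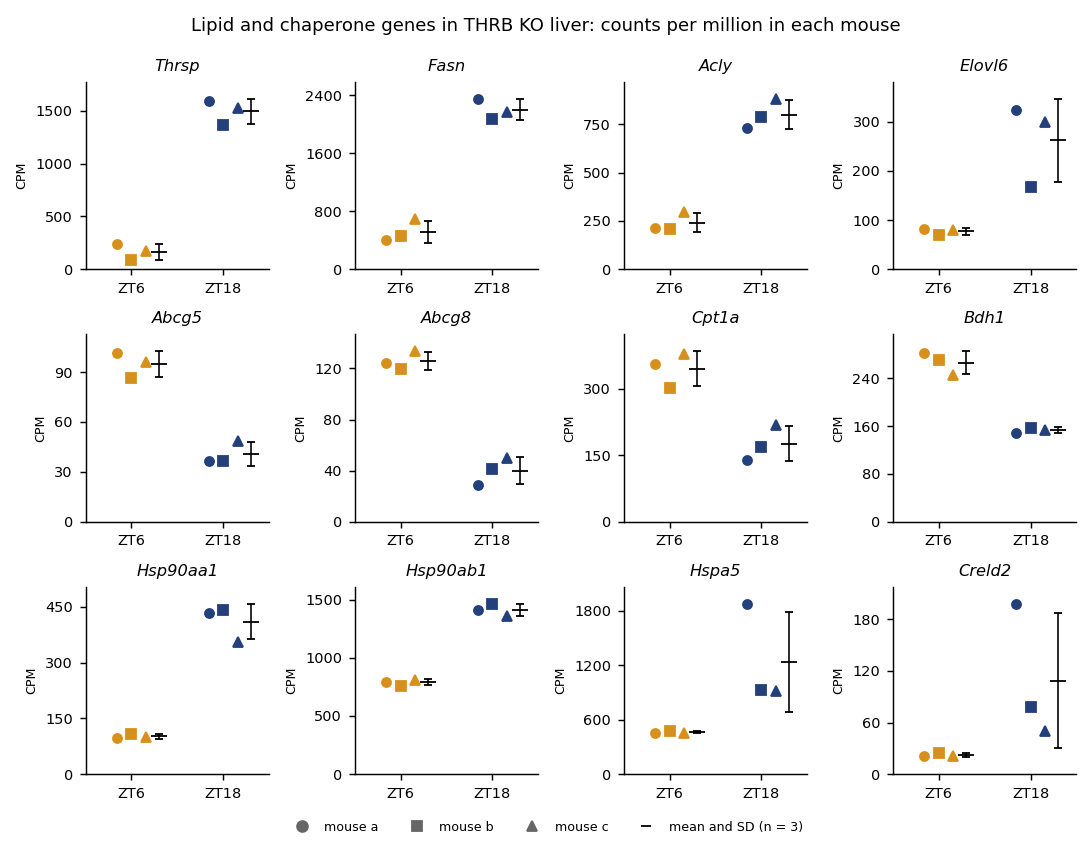
CPM (y axis, from 0) of 12 lipid and chaperone genes in each THRB KO mouse at ZT6 (orange) and ZT18 (blue), with mean and SD of 3 mice in black. The times do not overlap for any of the 12 genes, and ZT18 mouse a is far above mice b and c for Hspa5 and Creld2.

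Most ribosomal protein genes moved little. Of 52 cytosolic ribosomal protein genes 0 were called by edgeR, against 5.89% higher and 7.20% lower of all genes tested. Of these 52 genes, 1 had an unadjusted p under 0.05, and DESeq2 also called 0. In the fit of the 6 libraries alone 1 was called higher. Their log2 fold changes ran from -0.115 to 2.13, with 44 positive and a median of 0.06. Of 27 genes of ribosome biogenesis, 4 were higher (Rrp12, Nolc1, Nop16 and Wdr12; 5.89% of all genes tested were) and 1 was lower, Ubtf, a factor of ribosomal RNA transcription (log2 fold change -0.44, edgeR adjusted p = 3.4e-04). Nop16, a nucleolar protein, rose from 27.1 ± 2.46 to 42.1 ± 4.17 CPM (SD, n = 3; log2 fold change 0.64, edgeR adjusted p = 0.00106). The upward count became 1 without ZT18 mouse a and 2 without ZT6 mouse a.

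Of 40 genes of xenobiotic metabolism, 5 were higher (Cyp2a5, Fmo5, Sult1d1, Gsta3 and Cyp3a13) and 1 lower (Gclm). The median log2 fold change was 0.03, and the shares over all genes tested were 5.89% higher and 7.20% lower. Fmo5, a flavin monooxygenase, was at 466, 447 and 492 CPM at ZT6 and at 1033, 1139 and 1105 CPM at ZT18 (log2 fold change 1.22, standard error 0.16, edgeR adjusted p = 8.52e-06). Cyp2a5 rose from 417, 335 and 393 CPM at ZT6 to 1480, 735 and 907 CPM at ZT18 (log2 fold change 1.45, edgeR adjusted p = 0.0044), and without ZT18 mouse a its adjusted p was 0.0531. Reads of Cyp2a5 and its near-identical paralog Cyp2a4 can be split between them. The glutathione transferase Gsta3 and the cytochrome Cyp3a13 had log2 fold changes of 0.58 and 0.52 (edgeR adjusted p = 8.56e-04 and 0.0039), and the count of 5 became 3 without ZT18 mouse a. The call of Gclm was lost without ZT6 mouse a, ZT18 mouse a or ZT18 mouse b.

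NAD and iron genes formed a mixed list, with 5 of 25 higher and 7 lower, against 5.89% and 7.20% of all genes tested. Nampt and Nmrk1, both enzymes of NAD synthesis, had log2 fold changes of 0.73 and 1.15 (edgeR adjusted p = 0.0103 and 1.55e-06). Among the 7 genes called lower, Nmnat3 and Nadsyn1 are also of NAD synthesis. Nampt was at 91.7, 43.7 and 50.1 CPM at ZT6 and between 101 and 104 CPM at ZT18, and its call was lost without ZT6 mouse b or c (adjusted p = 0.0818 and 0.0762) and in the fit of the 6 libraries alone (0.0736). Hamp, which encodes the iron hormone hepcidin, was at 892, 579 and 600 CPM at ZT6 and at 1112, 1611 and 1273 CPM at ZT18 (log2 fold change 0.95, edgeR adjusted p = 0.00923), with adjusted p from 0.051 to 0.0593 without ZT6 mouse b, ZT6 mouse c or ZT18 mouse b. Slc40a1, which encodes the iron exporter ferroportin that hepcidin binds, fell from 202 ± 20.6 to 107 ± 10.3 CPM (SD, n = 3; log2 fold change -0.91, edgeR adjusted p = 0.00225). The upward count became 1 without ZT6 mouse c, 2 without ZT6 mouse b and 3 without ZT18 mouse a, and the downward count 3 without ZT18 mouse b and 4 without ZT6 mouse a, ZT6 mouse c or ZT18 mouse a.

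Autophagy genes that changed were lower at ZT18, 4 of 23 (Gabarapl1, Ulk1, Map1lc3b and Wipi2), against 7.20% of all genes tested. The list median log2 fold change was -0.17. Gabarapl1, an ATG8 protein of the autophagosome membrane, was at 482, 438 and 482 CPM in ZT6 mice a, b and c and at 133, 152 and 185 CPM in ZT18 mice a, b and c. Its lowest ZT6 value was more than double its highest ZT18 value (log2 fold change -1.57, standard error 0.15, edgeR adjusted p = 6.18e-08). Ulk1, the initiating kinase, and Map1lc3b had log2 fold changes of -0.79 and -0.38 (edgeR adjusted p = 0.00218 and 0.00105). With single mice left out, 3 or 4 genes were called.

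The fibrinogen genes were the 3 called of 28 plasma and acute phase genes, and each was lower at ZT18, as were 7.20% of all genes tested. Fga, Fgb and Fgg, neighbours on chromosome 3 that encode the chains of one protein, had log2 fold changes of -0.82, -0.74 and -0.62 (edgeR adjusted p = 2.88e-04, 1.96e-04 and 5.79e-04). Fga was at 4120, 4837 and 5235 CPM at ZT6 and at 2298, 3128 and 2604 CPM at ZT18, without overlap, and the 3 calls remained with any single mouse left out. Alb, albumin, had a log2 fold change of 0.12 and did not pass. Of 27 interferon and antigen presentation genes, 5 were lower at ZT18 (Usp18, Mx1, Ifit1, Rsad2 and Ifi44) and 1 higher (Stat2). Their median log2 fold change was -0.27, and 7.20% and 5.89% of all genes tested were lower and higher. Usp18, a brake on interferon signalling, was at 14.9, 9.24 and 17.01 CPM at ZT6 and at 4.13, 5.04 and 4.79 CPM at ZT18 (log2 fold change -1.56, standard error 0.29, edgeR adjusted p = 5.21e-04). With single mice left out, the downward count was between 1 and 3 for each of the 6 mice. The call of Stat2 was lost without ZT6 mouse a, ZT6 mouse b, ZT18 mouse a or ZT18 mouse b.

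Of 25 measured genes of thyroid hormone transport, reception and response, 3 were higher at ZT18 (Thrsp, Hr and Me1) and 6 lower, among them Klf9, Serpina7, Thra, Rxra and Ncoa2. Over all genes tested 5.89% were higher and 7.20% lower, and the list median log2 fold change was -0.05. Thra, the receptor that remains in these mice, was at 23.3, 21.0 and 19.0 CPM at ZT6 and at 10.9, 13.8 and 13.7 CPM at ZT18 (log2 fold change -0.72, standard error 0.15, edgeR adjusted p = 0.0018). It shares a stretch with Nr1d1, as given above. Dio1, the deiodinase of liver, was at 51.8, 41.5 and 39.6 CPM at ZT6 and at 67.9, 61.5 and 48.8 CPM at ZT18, with overlap, and did not pass (log2 fold change 0.42, edgeR adjusted p = 0.483). The upward count became 1 without ZT6 mouse a, b or c. The downward count became 4 without ZT6 mouse c or ZT18 mouse a.

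Cell cycle calls were upward, and immediate early calls went in both directions. Btg2 is in both lists, and the immediate early genes had a median log2 fold change of 0.09, with 11 of 22 positive. Of 25 cell cycle genes 4 were higher (Cdkn1a, Btg2, Mcm2 and Ccne2), and of 22 immediate early genes 2 were higher (Btg2 and Jund) and 1 lower (Junb), where 5.89% and 7.20% of all genes tested were higher and lower. Btg2, an antiproliferative gene, rose from 4.64 ± 1.09 to 10.5 ± 1.85 CPM (SD, n = 3; log2 fold change 1.17, edgeR adjusted p = 1.0e-04). Junb, a subunit of AP-1, fell from 27.8 ± 4.57 to 12.0 ± 2.58 CPM (SD, n = 3; log2 fold change -1.21, edgeR adjusted p = 2.51e-04). The cell cycle count became 2 without ZT6 mouse a, ZT18 mouse a or ZT18 mouse b. The upward immediate early count became 1 without ZT6 mouse a, ZT6 mouse b, ZT18 mouse a or ZT18 mouse b.

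Several of the strongest changes lay outside these lists. Nat8f5, an N-acetyltransferase family gene, was at 4.604, 7.69 and 8.11 CPM at ZT6 and at 56.9, 67.0 and 45.2 CPM at ZT18 (log2 fold change 3.05, standard error 0.31, edgeR adjusted p = 1.2e-07). Clic3, a chloride intracellular channel gene, and Chrna4, a nicotinic receptor subunit, had log2 fold changes of 2.99 and 2.86 (edgeR adjusted p = 0.00157 and 0.0135), and Chrna4 missed the threshold without ZT6 mouse a (adjusted p = 0.0577). The whole span of Clic3 overlaps Paxx on the other strand. Downward, Clec2h, a C-type lectin, was at 45.7, 34.1 and 28.6 CPM at ZT6 and at 3.68, 4.06 and 4.41 CPM at ZT18 (log2 fold change -3.15, edgeR adjusted p = 4.84e-05). Syt1, a synaptotagmin, Casp6, a caspase, Fbxo21, an F-box protein, and Ndrg1 had log2 fold changes of -2.60, -2.10, -1.97 and -1.78 (edgeR adjusted p = 8.14e-08, 2.74e-08, 9.49e-07 and 6.3e-04). Klhl33 had a log2 fold change of -1.89 (edgeR adjusted p = 0.037) and lost its call without any of the 6 mice in turn. Mup14, a major urinary protein, was at 19.8, 22.3 and 863 CPM in ZT6 mice a, b and c and between 8.17 and 11.5 CPM at ZT18. The log2 fold change of -4.93 (edgeR adjusted p = 0.0433) rested on ZT6 mouse c, without which the adjusted p was 0.726 (0.14, 0.118 and 0.118 without ZT18 mouse a, b and c), and its reads can be shared with near-identical Mup genes.

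Summed markers of other cell types overlapped between the times except those of pericentral hepatocytes and B cells. Beside the single markers called below, 5.89% of all genes tested were higher and 7.20% lower. The 10 Kupffer cell and macrophage markers summed to between 264 and 454 CPM at ZT6 and between 277 and 309 CPM at ZT18 (exact permutation p = 0.9). The 8 endothelial markers summed to between 150 and 211 CPM and between 171 and 225 CPM, and the 8 stellate cell markers to between 197 and 243 CPM and between 239 and 277 CPM, in the same order. Of the stellate cell markers 1 was called higher, Des. The 8 pericentral hepatocyte markers summed to 7660, 7457 and 7516 CPM in ZT6 mice a, b and c and to 6813, 6090 and 5663 CPM in ZT18 mice a, b and c, without overlap (exact permutation p = 0.1, the smallest possible), and 2 of them were called lower, Axin2 and Lhpp. The 8 periportal markers summed to between 3696 and 5191 CPM at ZT6 and between 3450 and 4294 CPM at ZT18. Of 5 measured cholangiocyte markers, Krt19 and Sox9 were called higher, with sums between 35.8 and 41.9 CPM at ZT6 and between 36.9 and 49.2 CPM at ZT18. The 5 B cell markers summed to between 8.58 and 11.6 CPM and between 6.02 and 8.50 CPM, without overlap (exact permutation p = 0.1) and with Cd79b called lower, and the 5 red blood cell markers to between 184 and 332 CPM and between 232 and 561 CPM. Sums of T and NK cell, neutrophil, exocrine pancreas and adipocyte markers lay between 0 and 3.18 CPM in each mouse. The part of these shifts in the results above was not tested.

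The other sampling times of the same genotype place these genes within the day. Their means do not enter the contrast of ZT18 and ZT6, but their libraries are part of the fit of all 36 libraries that called the genes. Of the genes higher at ZT18, 997 (94.1%) also had a higher mean over ZT14 and ZT22 than over ZT2 and ZT10, against 49.7% of all genes tested. Of the genes lower at ZT18, 1227 (94.7%) had a lower mean over those dark times. Over the 6 times, 557 (52.5%) of the higher genes had their highest mean at ZT18, 261 (24.6%) at ZT14 and 183 (17.3%) at ZT22. Their lowest mean was at ZT6 for 593 (55.9%) and at ZT10 for 364 (34.3%). Of the lower genes, 866 (66.8%) were highest at ZT6 and 323 (24.9%) at ZT10, and 720 (55.6%) were lowest at ZT18. The peak shares include the samples that called the genes and are a description. Clock genes were spread over the day, with the highest KO mean of Nr1d1 at ZT6, of Dbp at ZT10, of Per2 at ZT18, of Arntl and Cry1 at ZT22 and of Nfil3 at ZT2. Fasn, Thrsp, Hspa5 and Hsp90aa1 were highest at ZT18, and Cpt1a and Pnpla2 were highest at ZT10 and lowest at ZT18.

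**Figure D4:**
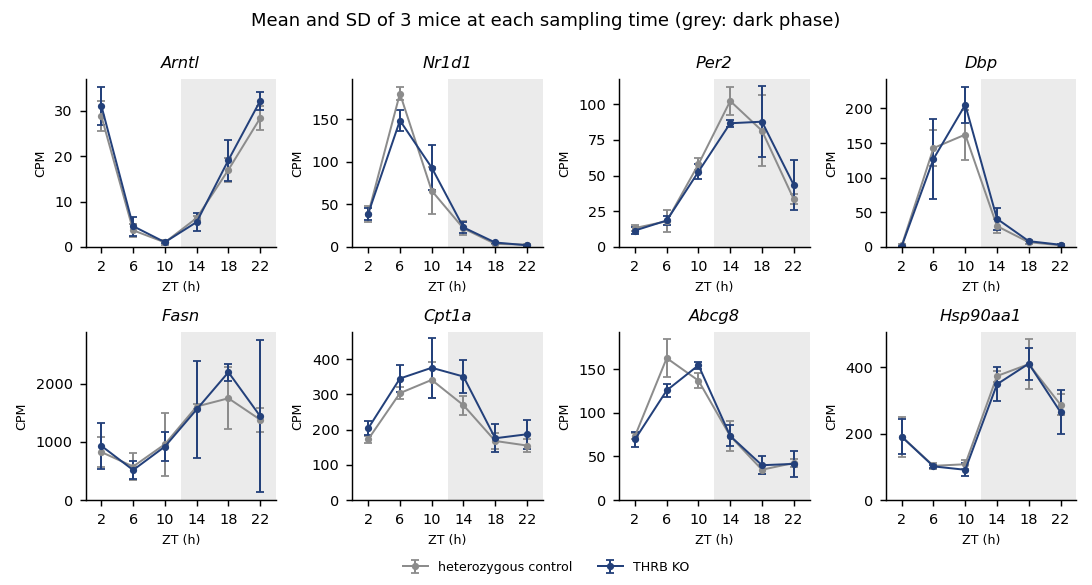
Mean and SD (bars, n = 3 mice) of CPM (y axis, from 0) of 8 genes at 6 sampling times (x axis, hours after lights on; grey, dark phase) in THRB KO mice (blue) and heterozygous controls (grey). Nr1d1 peaks at ZT6, Dbp at ZT10 and Hsp90aa1 at ZT18 in THRB KO mice.

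The same times in heterozygous control livers gave 2993 called genes (16.6%), 1386 higher and 1607 lower. Of the 2356 genes called in THRB KO liver, 1592 (67.6%) were also called in the controls in the same direction, which is 53.2% of the control calls, and 0 were called in opposite directions by edgeR at that threshold. The control estimate had the same sign for 2315 (98.3%) of the KO calls. A gene called in one genotype alone is not thereby different between them, so the difference of the changes was tested. By edgeR's quasi-likelihood test of the interaction 0 genes passed (0%), with 811 (4.51%) at an unadjusted p under 0.05 and a smallest adjusted p of 0.76. DESeq2 called 0 as well, with 816 at an unadjusted p under 0.05. Among clock genes the log2 fold changes in KO and control liver were -4.82 and -5.63 for Nr1d1, 2.06 and 2.21 for Arntl, 2.24 and 2.17 for Per2 and 2.68 and 2.50 for Cry1. Heat shock genes were called higher for 15 of 25 in KO and 16 of 25 in control liver, and unfolded protein response genes for 14 and 17 of 31.

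Of the 20 genes of fatty acid synthesis 10 were called higher in KO liver (median log2 fold change 0.85) and 4 in controls (median 0.31), a difference of counts that was not tested. Fasn rose by 2.09 and 1.6 on the log2 scale in KO and control liver (difference 0.49, edgeR adjusted p = 0.999, unadjusted 0.48), and Me1 by 0.98 in KO with 0.11 in controls (difference 0.87, adjusted p = 0.999, unadjusted 0.043). Pfkfb3 had log2 fold changes of -2.40 and -0.25 (difference -2.15, edgeR adjusted p = 0.999, unadjusted 0.00463). Igfbp1 had 0.68 and -3.06 (difference 3.74, edgeR adjusted p = 0.999, unadjusted 0.0015). Interferon genes had a median of -0.27 in KO and 0.22 in control liver. The 10 Kupffer cell and macrophage markers had medians of -0.06 and 0.71 in the same order. Of all genes tested 16.6% were called in controls in either direction, and 2 of these markers were called higher there. Their sum in controls was 334, 285 and 286 CPM in ZT6 mice a, b and c and 333, 774 and 358 CPM in ZT18 mice a, b and c, the highest in ZT18 mouse b, and its part in the interferon values was not tested. The smallest p-values of the interaction belonged to AC131339.2, which was at or near 0 CPM in these KO libraries, and to Fbxo32, Mnt, Cyp3a25 and Zkscan1. Fbxo32, a ubiquitin ligase of muscle wasting, had log2 fold changes of -0.47 in KO and -2.29 in control liver (difference 1.81, standard error 0.40, edgeR adjusted p = 0.76, unadjusted 9.01e-05), and its change in KO liver passed without ZT18 mouse c (adjusted p = 0.0186). Mnt, a MAX-binding repressor, was at 11.3 ± 0.0187 CPM at ZT6 and 19.8 ± 1.76 CPM at ZT18 in KO mice (SD, n = 3; log2 fold change 0.81, edgeR adjusted p = 6.57e-04), against -0.13 in controls (difference 0.95, standard error 0.22, edgeR adjusted p = 0.76, unadjusted 1.56e-04). Of these differences, 0 passed edgeR's correction over all genes.

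**Figure D5:**
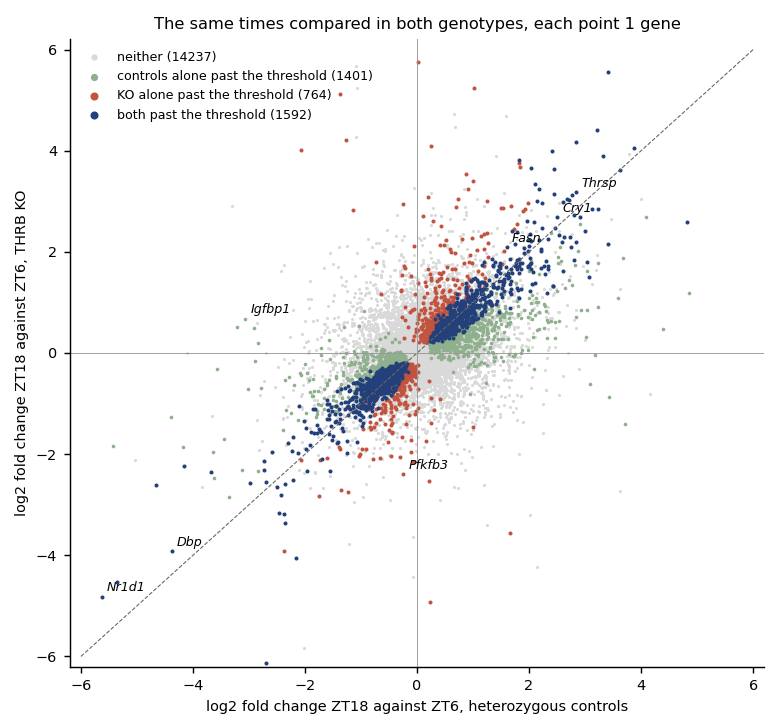
Log2 fold change of ZT18 against ZT6 in heterozygous controls (x axis) and THRB KO mice (y axis), each point 1 gene, with the dashed line marking equal changes; 5 genes lie outside the axes. Blue points (1592) passed in both genotypes, red (764) in THRB KO alone and green (1401) in controls alone, and none of these differences between genotypes passed its own test.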

How the data were processed

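Livers of 36 mice, 18 per genotype and 3 per genotype and sampling time, were sequenced by the authors from poly-A selected, non-directional libraries. The authors mapped cleaned read pairs to GRCm38 with HISAT2, counted reads per gene with featureCounts and deposited raw counts per gene. Versions, annotation release and the treatment of reads with several matches are not given in the sources used here. Such reads can be split between near-identical genes, and without strand 34 of the 121 genes followed through the alternatives overlap a tested gene on the other strand.

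Genotype, time and letter of each mouse came from the sample titles. Genes with at least 100 counts over 36 libraries were tested by edgeR 4.0.16 (R 4.3.3, limma 3.58.1; TMM scaling, glmQLFit and glmQLFTest) in 1 fit of 12 genotype-by-time groups with 24 residual degrees of freedom. The contrasts were ZT18 minus ZT6 in THRB KO, in controls and their difference. P-values were adjusted by Benjamini-Hochberg over 17994 genes with a threshold of 0.05. CPM values use TMM library sizes and fitted fold changes stem from the counts. The standard error is the absolute log2 fold change divided by the square root of F. No 2 libraries of a group were the same, since the chi-square per gene between them was from 33.4 to 50.8. With 31008555 to 36922596 counts per library, genes with low counts are measured least precisely. On simulated counts for these groups with 200 changed genes, 75% of the 100 changed by 1 and 98% of the 100 changed by 2 on the log2 scale were recovered, with 6 false calls among the unchanged genes. The changed genes were drawn from those with a mean of at least 1 CPM, so recovery below that level was not measured. They were fewer than the genes called in the data.

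Named genes were drawn from the measured clock genes and from the 12 largest changes in each direction among 1773 genes that met a rule. The rule was passing the threshold, a mean of at least 5 CPM, no overlap between times, protein-coding and no predicted-gene name. Further sources were the anchor genes and the 4 smallest p of each other list, the 5 smallest p of the difference, and Thrb, Thra and Dio1. Genes listed with a count and no value were named after their values were seen. The members, lists and motifs were chosen with earlier results of these data known. Alternatives were RLE size factors, filterByExpr, no filter, DESeq2 1.42.0, a fit of only the libraries compared, the mouse letter as a block and leaving out each library. Promoters were taken from RefSeq, GRCm38.p6. Some genes of the lists are counted but not reported here by name.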

Additional observations from a re-analysis of the deposited data

How the results depend on the processing

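Of 121 genes followed through the alternatives 89 were called, of which 73 stayed past the threshold in the same direction under all 13 alternatives, and 16 fell short under at least 1. A further 10 genes that were not called passed under at least 1, namely Usp2, Srebf1, Cyp7a1, Cyp8b1, Nr0b2 and Fbxo32 as given above (Nr0b2 also without a filter, adjusted p = 0.0297), and 4 others under the letter block. The genes higher at ZT18 in THRB KO liver numbered 1060, and from 589 to 953 with 1 library left out, and the genes lower at ZT18 numbered 1296, and from 680 to 1156. Other alternatives kept both counts within 1.5 times. The count for the difference between genotypes was 0 and ranged from 0 to 1 with 1 library left out, the 1 being without ZT18 mouse a. The count in controls, 2993, was 1425 in a fit of only the libraries compared, 1215 in that fit with the mouse letter as a block, and from 2038 to 2638 with 1 library left out. The cause was not tested.

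As a block over all libraries the letter gave 1192 genes higher and 1490 lower, 3326 in controls and 0 for the difference, and in the fit of the 6 libraries 753 higher and 866 lower. In the 6 libraries the deviations of same-lettered mice from their group means correlated by 0.0636, 0.00715 and 0.0551. Only 1 of 3 letters correlated best with its own. With 3 mice per time these values do not show whether a letter marks mice handled together. With the block in the 6 libraries Insr, Gsk3a, G0s2 and Mup14 did not pass (edgeR adjusted p = 0.0538, 0.0655, 0.0656 and 0.207), while Fgf21, Dio1 and Cps1 did (0.0218, 0.0308 and 0.0366). With the block in all libraries Csnk1e passed (0.0462) and Mup14 did not (0.0759).

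Some genes that were not called changed sign. With 1 library left out the log2 fold change ranged from -0.166 to 0.058 for Clock (positive without ZT6 mouse b), from -0.568 to 0.49 for Per1 (positive without ZT6 mouse c, and 0.111 with the block in the 6 libraries), from -0.854 to 0.183 for Ciart (positive without ZT6 mouse a), from -0.033 to 0.086 for Csnk1d (-0.018, -0.021 and -0.033 without ZT6 mouse a, ZT6 mouse b and ZT18 mouse b) and from -0.077 to 0.111 for Thrb (negative without ZT6 mouse b).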
